A study of Mus musculus with 6 samples.

Results

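The zinc genes described here were 10 of the 18193 genes named on the arrays: the zinc exporters Slc30a1, Slc30a5, Slc30a6, Slc30a7 and Slc30a9, the zinc importers Slc39a1, Slc39a8 and Slc39a10, and the metallothioneins Mt1 and Mt2. Every probe set annotated to a single one of these symbols was taken, which gave 15 of the 45037 probe sets, 2 for each of 5 genes and 1 for each of the other 5. Slc30a1 was chosen by its measured rise in this contrast, and the other genes were added to ask whether that rise comes with a change in other zinc-responsive genes. The differences between the groups are therefore a description of these genes, and no test is built on them.

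Affymetrix arrays were run on RNA of bone marrow cells that carried CD71, the receptor for transferrin, and the red cell antigen Ter119, sorted from 6 female mice aged 6 weeks. The 3 knockout mice were Bcl11a fl/fl EpoR-Cre+, so that the floxed gene for this globin repressor is deleted where the erythropoietin receptor locus drives Cre recombinase. The 3 control mice were Bcl11a +/+, with no Cre named. Effects of Cre, of the Cre-carrying allele and of strain background cannot be told apart from that of Bcl11a.

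Zinc enters the cytoplasm through importers of the ZIP family, encoded by Slc39 genes, and leaves it, for the outside or for organelles, through exporters of the ZnT family, encoded by Slc30 genes. Metallothioneins are small cysteine-rich proteins that bind zinc in the cytoplasm. When zinc rises, the zinc-sensing transcription factor MTF-1 binds metal response elements and induces Mt1, Mt2 and Slc30a1 in mouse cells, while Slc39a10 is reported to be repressed by it. In mouse erythroid precursors Slc30a1 and Slc39a8 have also been described as genes controlled by GATA1.

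The array medians lay between 67.5 and 70.9 in linear intensity, and the correlation of log2 values across probe sets, which are not replicates, was 0.981 to 0.986 for arrays of the same group and 0.980 to 0.983 for arrays of different groups. Of the 7 Bcl11a probe sets none passed an adjusted p threshold of 0.05 in limma, and their directions differed. Of these 7, 3 had an unadjusted p under 0.05, beside 12.4% of all probe sets. The knockouts were below all controls in 4 of the 7, such as the brightest (1190 to 1419 in the knockouts and 1450 to 1553 in the controls). They were above all controls in 2, such as 1419406_a_at (1047 to 1115 in the knockouts and 853 to 971 in the controls), and the groups overlapped in 1. Over all probe sets the knockouts were below all controls in 8.91% and above in 10.6%. Which probes lie in the deleted part was not tested. Erythroid genes such as Alas2 (23634 to 24056 in the knockouts and 23736 to 26006 in the controls) were bright. Neutrophil genes were bright too, and S100a8 was read by the brightest of all probe sets on each of the 6 arrays. The 9 measured of 10 neutrophil markers, none at 0, summed to 190116 to 198724 in the knockouts and to 205219 to 208026 in the controls, so transcripts of neutrophil genes were present in both groups. In such bulk samples fewer cells of a type and less RNA per cell cannot be told apart, and how much of each zinc gene's signal came from other cells was not tested.

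Slc30a1, which exports zinc across the plasma membrane, rose in the knockout. Its brighter probe set (1436164_at) had intensities of 1925, 2213 and 1865 in the knockout mice, against 421, 283 and 325 in the control mice. Each knockout value was more than 4 times as high as each control value. The dimmer probe set (1422786_at) had 524, 622 and 602 in the knockouts and 168, 169 and 176 in the controls, again with a wide gap between the groups. The means of the brighter probe set were 2001 ± 186 in the knockouts and 343 ± 70.5 in the controls (SD, n = 3 each), a ratio of 5.83. Those of the dimmer one were 583 ± 51.7 and 171 ± 4.58 (knockout and control), a ratio of 3.40. On the scale log2(intensity + 16), which understates changes of dim probe sets, the changes were 2.50 ± 0.17 and 1.67 ± 0.11 (SE). The probe sets therefore moved the same way but not by the same amount, and their levels cannot be set against each other.

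Both Slc30a1 probe sets passed an adjusted p threshold of 0.05 in the limma fit over all probe sets, and none of the other 13 did, of which 3 (23.1%) had an unadjusted p under 0.05, beside 12.4% of all probe sets. Among all probe sets 0.147% passed, 0.14% as rises and 0.00666% as falls. Since this contrast chose Slc30a1, nothing is read from its count. Without knockout mouse 1, the brighter probe set had a log2 change of 2.53 and missed the threshold (adjusted p = 0.0555), while the dimmer one still passed whichever mouse was left out.

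**Figure D1:**
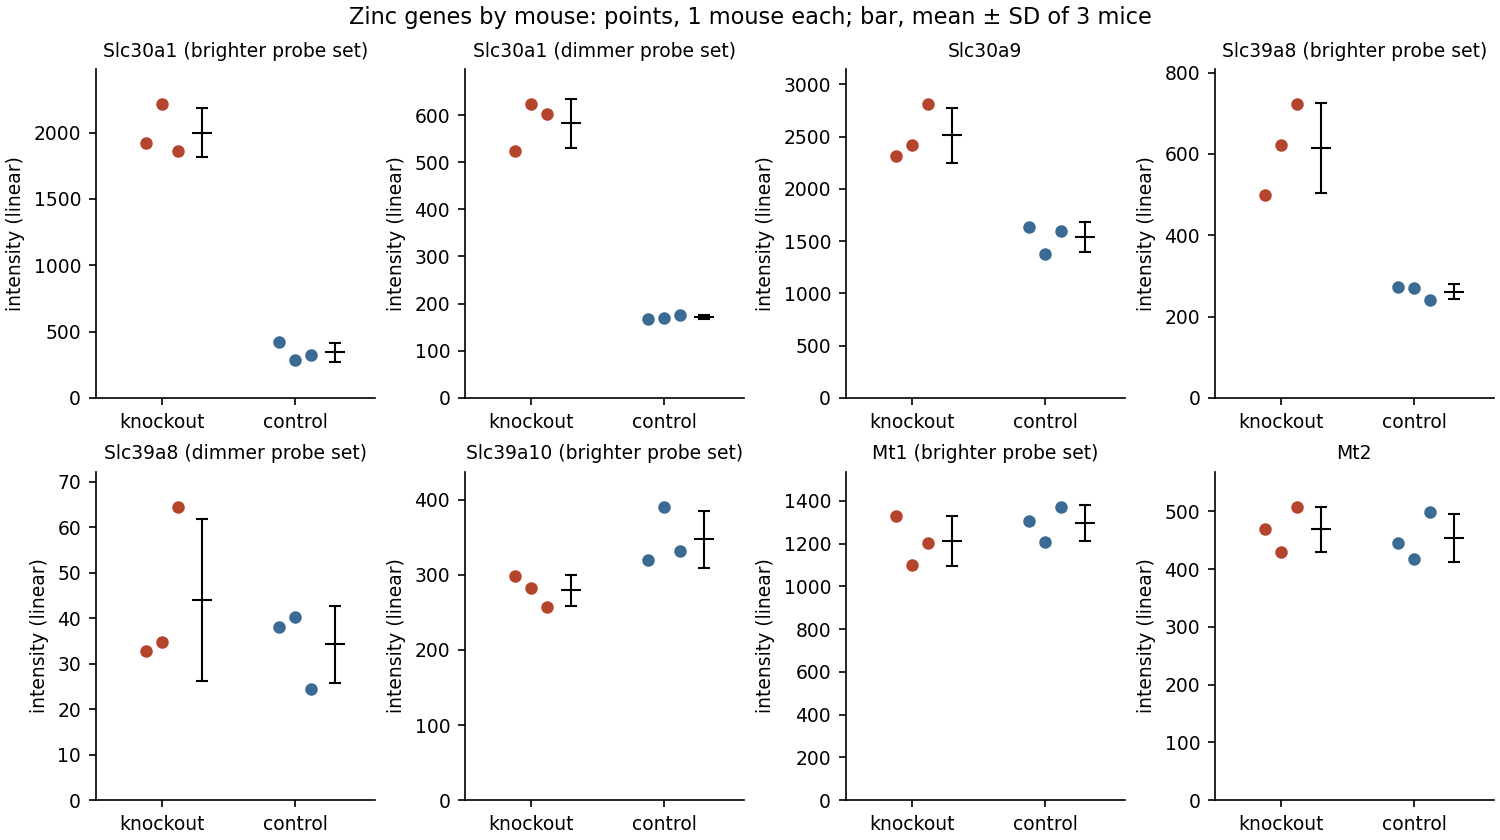
Linear intensity (y axis, from 0) of 8 of the 15 probe sets in the 3 knockout and the 3 control mice (x axis). Each point is 1 mouse and the bar is the mean ± SD of 3 mice. The knockout and control points are apart for both Slc30a1 probe sets (1865 to 2213 against 283 to 421 for the brighter), for Slc30a9, for the brighter Slc39a8 probe set and, with knockouts lower, for the brighter Slc39a10 probe set, and they overlap for Mt1, Mt2 and the dimmer Slc39a8 probe set.

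The metallothioneins Mt1 and Mt2 had intensities that overlapped between the groups in all 3 of their probe sets. The brighter Mt1 probe set (1422557_s_at, whose suffix marks probes that can match more than 1 transcript) had 1331, 1101 and 1205 in the knockouts and 1306, 1207 and 1372 in the controls. Its log2 change was -0.10, with a 95% interval from -0.37 to 0.18. Mt2 had 469, 429 and 508 in the knockouts and 446, 418 and 498 in the controls, with values of the groups interleaved. Its log2 change was 0.05, with a 95% interval from -0.24 to 0.33. The dimmer Mt1 probe set (1451612_at) had 55.4, 66.7 and 43.5 in the knockouts and 41.7, 62.2 and 50.8 in the controls, a log2 change of 0.07 (interval -0.34 to 0.49). The arrays carry no detection calls in these values, so such dim levels cannot be told from background.

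To show where the letters of the metal response element stand in the genes named above, the windows from 250 bases before to 50 bases after each annotated start were taken from RefSeq (build GRCm38.p6), which held 12 windows for the 10 genes. The core was searched as TGCACNC and TGCGCNC on both strands, and no match overlapped one of the GATA motifs given further down. It was found in 5 of the 12 windows, those of Slc30a1, Slc30a5, Mt1, Mt2 and 1 of the 2 windows of Slc39a8, against 25.7% of all 32851 windows. Slc30a1 had 2 matches, Mt1 had 3 and Mt2 had 4. The sites below are on the plus strand, 5′ to 3′, with the match in capitals and 10 bases on each side. Where the match reads on the opposite strand, the capitals are its reverse complement. The first base of the match is counted from the start site.
Slc30a1 at -43 (chr1:191906728-191906754, opposite strand): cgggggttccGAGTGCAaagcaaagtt
Slc30a1 at 31 (chr1:191906801-191906827, opposite strand): cctccgggccGAGCGCAgtcgccgcgg
Mt1 at -23 (chr8:94179056-94179082, same strand): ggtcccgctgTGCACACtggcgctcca
Mt1 at 21 (chr8:94179099-94179125, same strand): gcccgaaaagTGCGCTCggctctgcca
The 250 bases before the start of Mt2 (chr8:94172368-94172617, plus strand) held 3 of its 4 matches, in capitals, and are shown because Mt2 had the most matches of the 10 genes.
Mt2: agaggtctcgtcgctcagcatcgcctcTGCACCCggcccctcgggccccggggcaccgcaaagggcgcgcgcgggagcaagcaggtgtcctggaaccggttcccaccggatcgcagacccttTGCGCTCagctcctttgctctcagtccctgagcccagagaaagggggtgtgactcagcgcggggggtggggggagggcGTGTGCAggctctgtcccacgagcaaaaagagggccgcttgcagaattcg

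These matches are letters in a window and say nothing of whether MTF-1 was bound there.

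The other exporters that load organelles with zinc differed little between the groups. Slc30a5 and Slc30a6, which act together in the early secretory pathway, had log2 changes of -0.03 (95% interval -0.34 to 0.27) and 0.07 (-0.21 to 0.34), and their groups overlapped. Slc30a5 had 1336, 1379 and 1209 in the knockouts and 1168, 1463 and 1400 in the controls, and Slc30a6 lay between 457 and 495 in the knockouts and between 418 and 514 in the controls. Slc30a7, a Golgi exporter, had 368, 368 and 399 in the knockouts and 413, 444 and 452 in the controls in its brighter probe set (1450697_at). There every knockout value was below every control value, with a log2 change of -0.20 (interval -0.43 to 0.04). In its dimmer probe set (1435717_at) the groups overlapped and the log2 change was 0.08.

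Slc30a9, which exports zinc from mitochondria, stood higher in all 3 knockouts. Its intensities were 2314, 2416 and 2807 in the knockouts and 1638, 1375 and 1600 in the controls, with no overlap. The means were 2513 ± 260 in the knockouts and 1538 ± 142 in the controls (SD, n = 3 each), a ratio of 1.63 and a log2 change of 0.70 (95% interval 0.40 to 1.01). It missed the threshold of the whole-table fit (limma, adjusted p = 0.136).

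Among the importers, Slc39a8, which carries zinc and also manganese and iron into cells, showed the widest difference. Its brighter probe set (1416832_at) had 499.7, 623 and 721 in the knockouts and 272, 271 and 241 in the controls. The lowest knockout value was well above the highest control value, and the knockouts were more spread than the controls. The means were 615 ± 111 in the knockouts and 261 ± 17.5 in the controls (SD, n = 3 each), a ratio of 2.35 and a log2 change of 1.17 (95% interval 0.80 to 1.54). It too missed the threshold (limma, adjusted p = 0.0763). Slc39a8 and Slc30a9 both passed it with an intensity trend and robust moderation (adjusted p = 2e-04 and 0.00086), under which 3.21% of all probe sets passed. Both also passed with a pseudocount of 64, where 558 of all 45037 probe sets passed in place of 66. Both passed among the brightest 50% of probe sets as well, where 839 passed after the dimmer ones were dropped before the fit. Both missed it with the replicate block (limma, adjusted p = 0.431 each). Leaving out 1 mouse at a time, both missed it too (limma, adjusted p 0.128 to 0.300 for Slc39a8 and 0.211 to 0.369 for Slc30a9). The dimmer Slc39a8 probe set (1448482_at) had 32.7, 34.8 and 64.5 in the knockouts and 38.0, 40.2 and 24.5 in the controls. These values overlapped, and at this level the log2 change was 0.23, with bounds of -0.33 and 0.80.

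Slc39a10, a plasma membrane importer, had 298, 282 and 257 in the knockouts and 320, 391 and 332 in the controls in its brighter probe set (1433751_at). The knockouts were lower in all 3 mice, with a log2 change of -0.30 (95% interval -0.59 to -0.01), and the threshold was missed. In the dimmer probe set (1439041_at) the groups overlapped, with a log2 change of 0.04. Slc39a1, another plasma membrane importer, lay between 553 and 643 in the knockouts and between 634 and 681 in the controls, overlapping groups with a log2 change of -0.09 (interval -0.35 to 0.16).

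Across all 15 probe sets the groups did not overlap in 6, with the knockouts above in 4 (both of Slc30a1, Slc30a9 and the brighter of Slc39a8) and below in 2 (the brighter of Slc30a7 and of Slc39a10). The separation of Slc30a1 is what chose it, so nothing is read from its 2 probe sets. Without them the groups did not overlap in 4 of 13, with the knockouts above in 2 and below in 2. Over all probe sets the groups did not overlap in 19.5%, with the knockouts above in 10.6% and below in 8.91%. The median log2 change of the 15 was 0.07 and that of the 13 other than Slc30a1 was 0.05, beside -0.01 over all probe sets.

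**Figure D2:**
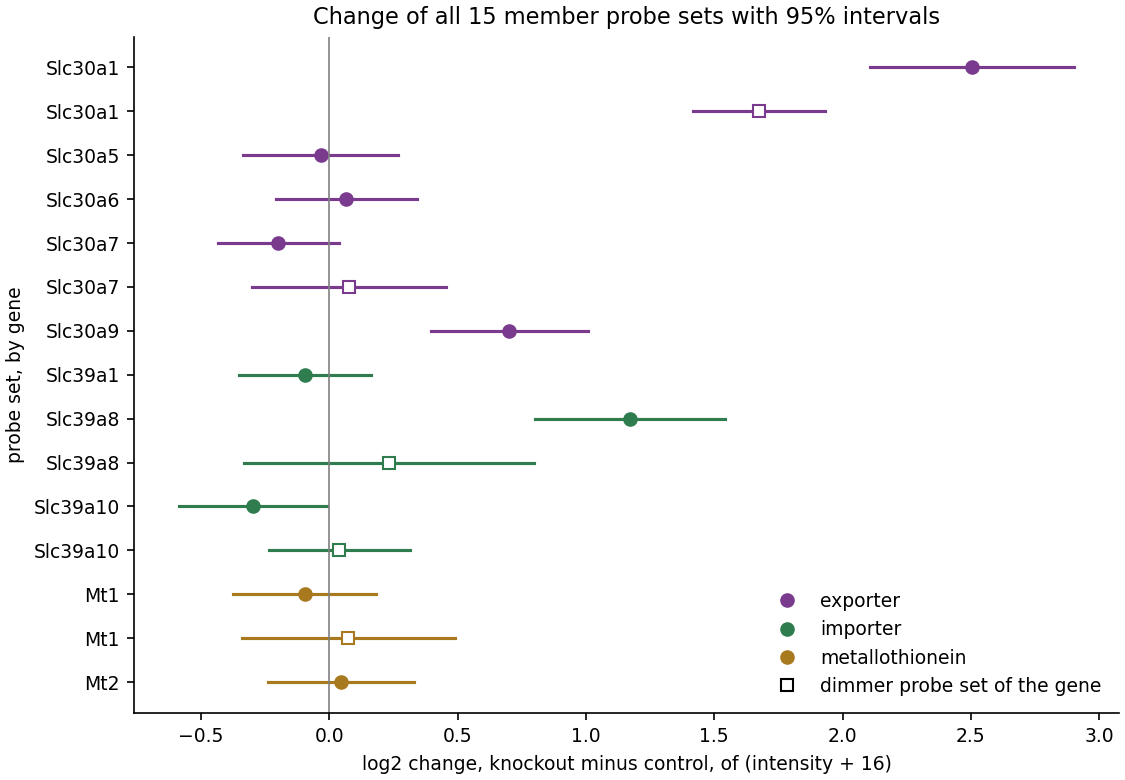
Log2 change (x axis, knockout minus control, of intensity + 16) of all 15 probe sets, by gene (y axis), with 95% intervals from the whole-table fit. Filled circles are the brightest probe set of a gene, open squares the dimmer one, and colours are exporters, importers and metallothioneins. Slc30a1 (2.50 and 1.67), Slc39a8 (1.17) and Slc30a9 (0.70) lie to the right of 0, while the 3 metallothionein intervals span 0.

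The rest of the zinc system was covered by 34 further genes on 5 lists, each gene read by its brightest probe set. None of the 34 passed limma's adjusted threshold in either direction, and 8 had an unadjusted p under 0.05, which is 23.5% beside 12.7% over all 18193 genes. Over all genes 0.214% passed. The groups did not overlap in 8 of the 34, 5 with the knockouts above and 3 with them below, beside 21.6% of all genes. With the intensity trend and robust moderation 4 of the 34 passed, beside 4.23% of all genes. The median log2 change of the 34 was -0.01, beside 0.00 over all genes.

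Of the 6 other exporters none passed and all 6 had log2 changes below 0, with a median of -0.23. Slc30a4, which supplies zinc to vesicles and to milk, had 225, 190 and 128 in the knockouts and 216, 301 and 286 in the controls, a log2 change of -0.54 (limma, adjusted p = 0.400). Slc30a10, mainly a manganese exporter, had a log2 change of -0.24, and Slc30a3, an exporter of synaptic vesicles, one of -0.18. The groups overlapped in all 6, and 2 of them, Slc30a2 and Slc30a8, lay under the lowest array median of 67.5 on every array, too dim to be told from background.

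Of the 11 other importers none passed, 5 had log2 changes above 0 and 6 below, with a median of -0.01. Slc39a5 had 3.66, 2.09 and 1.14 in the knockouts and 14.7, 7.99 and 8.12 in the controls, values too dim to be told from background. Slc39a12, at 9.71 to 46.3 on all arrays and as dim, had a log2 change of 0.56 between overlapping groups. Slc39a11 had 577, 480 and 540 in the knockouts and 692, 622 and 611 in the controls, without overlap, a log2 change of -0.26. Mt3 and Mt4, the metallothioneins best known from brain and squamous epithelium, had intensities between 1.00 and 13.3 on all arrays, with log2 changes of -0.08 and 0.20.

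Mtf1, which encodes MTF-1, had 733, 714 and 781 in the knockouts and 735, 643 and 626 in the controls, overlapping groups with a log2 change of 0.15. Its next brightest probe set (1428979_at) had 647, 597 and 651 in the knockouts and 561, 499 and 472 in the controls, without overlap, a log2 change of 0.30. In its remaining, dimmer probe sets (1429170_a_at, 1440414_at and 1452990_at) the groups overlapped, with log2 changes of -0.09, 0.07 and -0.40. Of the 8 genes of zinc sensing and reported MTF-1 targets, which include Mtf1, none passed. Gclc, the catalytic subunit of glutathione synthesis, had 3614, 3933 and 4017 in the knockouts and 3090, 2833 and 3160 in the controls, a log2 change of 0.35 (limma, adjusted p = 0.278). It passed with the intensity trend and robust moderation (adjusted p = 0.0178). Csrp1, a zinc-binding LIM protein, had a change the other way, -0.26, with every knockout value below every control value. Ndrg1 had a log2 change of -0.13 between overlapping groups. In 2 of its dimmer probe sets the knockouts were below all controls, beside 8.91% of all probe sets. These were 1423413_at (-0.69, limma, adjusted p = 0.113) and 1450976_at (-0.26). In its others, 1420760_s_at and 1450977_s_at, the groups overlapped (-0.18 and -0.43).

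Of 7 genes for zinc enzymes of red cells none passed in limma, and the median log2 change was 0.32. Changes lay above 0 for 5 and below 0 for 2, beside 49.8% of all genes above 0. Car1 and Car2 had log2 changes of 0.32 and 0.15, and Car3 and Car13 of -0.41 and -0.06. The groups overlapped for Car2, Car3 and Car13. In the dimmer Car3 probe sets the log2 changes ran from -0.19 to 0.30. Alad, the zinc enzyme that forms porphobilinogen for heme, had 5382, 6252 and 7114 in the knockouts and 4254, 3311 and 3875 in the controls, a log2 change of 0.71 (adjusted p = 0.181). Its dimmer probe set (1457306_at) had a log2 change of 1.93 and missed the threshold too (limma, adjusted p = 0.0882). Sod1, the copper and zinc superoxide dismutase, had 5879, 6026 and 5936 in the knockouts and 4826, 4681 and 4531 in the controls, a log2 change of 0.35 (limma, adjusted p = 0.237). Its dimmer probe sets had log2 changes from -0.04 to 0.18, the latter in the next brightest (1451124_at). The groups overlapped in all of these but 1435304_at. Pnp, a nucleoside phosphorylase, had a log2 change of 0.41, and its groups did not overlap. The brightest probe sets of these 3 enzymes passed with the intensity trend and robust moderation (adjusted p = 0.0034 for Alad, 0.00583 for Sod1 and 0.0130 for Pnp).

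**Figure D3:**
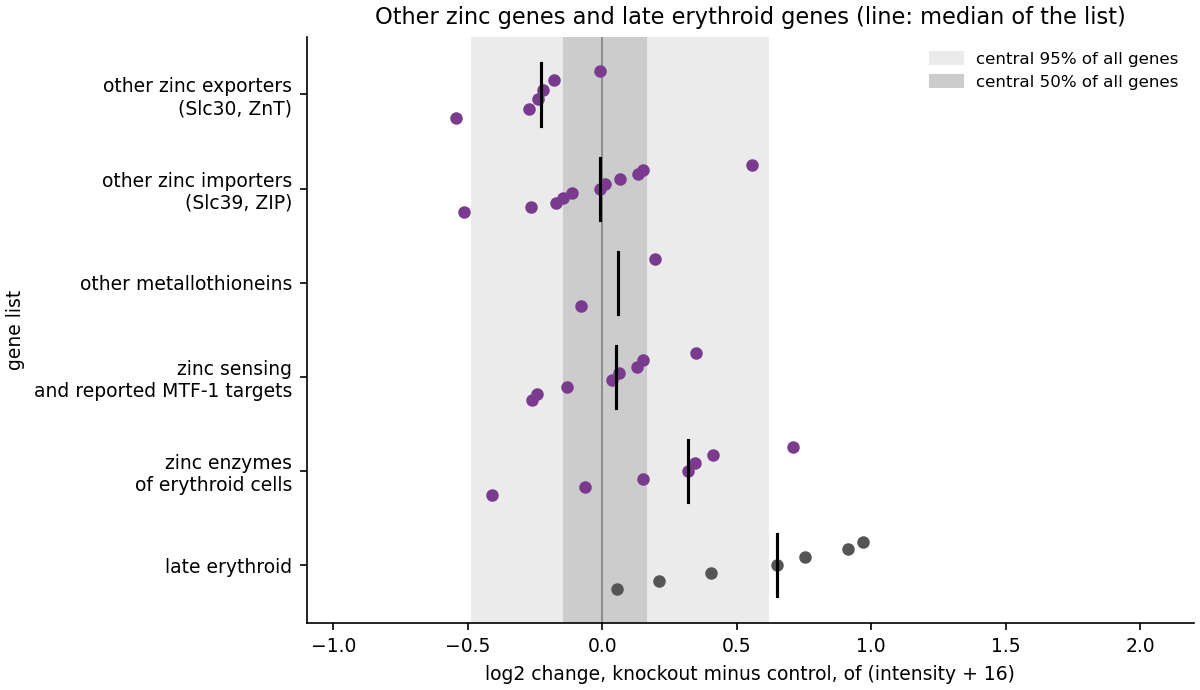
Log2 change (x axis, knockout minus control) of the 34 further zinc genes and of 7 late erythroid genes, by list (y axis). Each point is the brightest probe set of 1 gene, the black line is the list's median, and the grey bands hold the central 50% and 95% of all genes. The exporter list lies below 0 (median -0.23) and the late erythroid list above it (median 0.65).

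Genes of late red cell maturation stood higher beside these values. All 7 measured genes of the 10 on the late erythroid list had log2 changes above 0, beside 49.8% of all genes, with a median of 0.65. The knockouts were above all controls in 5 of these 7, beside 2248 of all 18193 genes. None of the 7 passed the threshold in limma, while 4 (57.1%) had an unadjusted p under 0.05, beside 12.7% of all genes. Their summed intensity was 66975 to 72831 in the knockouts and 48853 to 59276 in the controls. Of the 5 measured genes of the 6 on the list of erythroid identity and sorting markers, none passed in limma and 3 (60%) had an unadjusted p under 0.05, with a median log2 change of 0.38. The knockouts were above all controls for 3 of the 5, Gata1, Klf1 and Tfrc (log2 changes 0.70, 0.65 and 0.38), beside 2248 of all 18193 genes. The groups overlapped for Epor (-0.14) and Alas2 (-0.06). Epor is the locus that drives Cre in the knockouts, and the part of that allele in its value was not tested. Gata1 had 1657, 1813 and 1932 in the knockouts and 1299, 872 and 1171 in the controls. The part of these differences in the values of Slc30a1, Slc39a8 and Slc30a9 was not tested. Markers of basophils and mast cells summed to 4779 to 6568 in the knockouts and 7423 to 7615 in the controls, and those of macrophages and monocytes to 38515 to 39533 in the knockouts and 38811 to 39509 in the controls. The sums overlapped between the groups for megakaryocyte, B cell and T and NK cell markers. Among the B cell markers 4 of 5 had log2 changes below 0 and 1 above. Vpreb1 had 552 to 1007 in the knockouts and 1418 to 1934 in the controls, a log2 change of -1.19 (limma, adjusted p = 0.168). The groups overlapped for the other B cell markers. The part of such cells in the zinc genes' values was not tested either.

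For the letters of GATA motifs (AGATAA and TGATAA, both strands), 3 of the 12 windows of the zinc genes had a match, those of Slc30a6 and of 1 start each of Slc39a8 and Slc39a10, against 18.6% of all windows. Slc30a1 had none in its window, and 1 of the 2 windows of Slc39a8 had 1, shown because Slc39a8 was the importer with the widest difference.
Slc39a8 at -30 (chr3:135825617-135825642, GRCm38.p6, opposite strand, plus strand printed): cctccccttcTTATCTctaaagggtg

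The genes most like Slc30a1 over the 6 arrays, by Pearson's r of log2 values with its brighter probe set, were Vbp1 (0.999), Gcn1 (0.998), Ppp1r13b (0.998), Prokr1 (0.998) and Fcho2 (0.997). All had knockouts above controls without overlap, so these correlations mostly restate the difference between the groups. Gcn1 had 994, 1065 and 1021 in the knockouts and 420, 315 and 331 in the controls. Prokr1 had 2071, 2160 and 1890 in the knockouts and 735, 534 and 540 in the controls. By the same measure, and by the brightest probe set, Slc30a9 stood at 0.957, Slc39a8 at 0.957, Mt2 at 0.20 and Mt1 at -0.45. Slc30a7 stood at -0.92 and Slc39a10 at -0.86. The dimmer probe sets stood at 0.36 for Slc39a8, 0.15 for Mt1, 0.32 for Slc30a7 and 0.28 for Slc39a10.

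Of the 3 genes on each side of Slc30a1 in the RefSeq gene order, 3 had probe sets. Nek2, a mitotic kinase, had 1565, 1760 and 2115 in the knockouts and 1227, 1331 and 1510 in the controls in its brightest probe set, a log2 change of 0.41 (limma, adjusted p = 0.353). The noncoding gene 1700034H15Rik had 46.1, 47.9 and 41.7 in the knockouts and 29.8, 35.0 and 58.9 in the controls in its brighter probe set, and Rd3 stayed at or below 24.4 on all arrays. For Nek2 the knockouts were above all controls in the brightest probe set and in 1443999_at and 1437579_at (log2 changes 0.41 and 0.45). The groups overlapped in its 1417299_at (0.32). The knockouts were also above in the dimmer 1700034H15Rik probe set (1444093_at, 0.57), which stayed at or below 18.0 on all arrays. Over all probe sets the knockouts were above in 10.6%. No neighbour with a probe set passed the threshold.

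**Figure D4:**
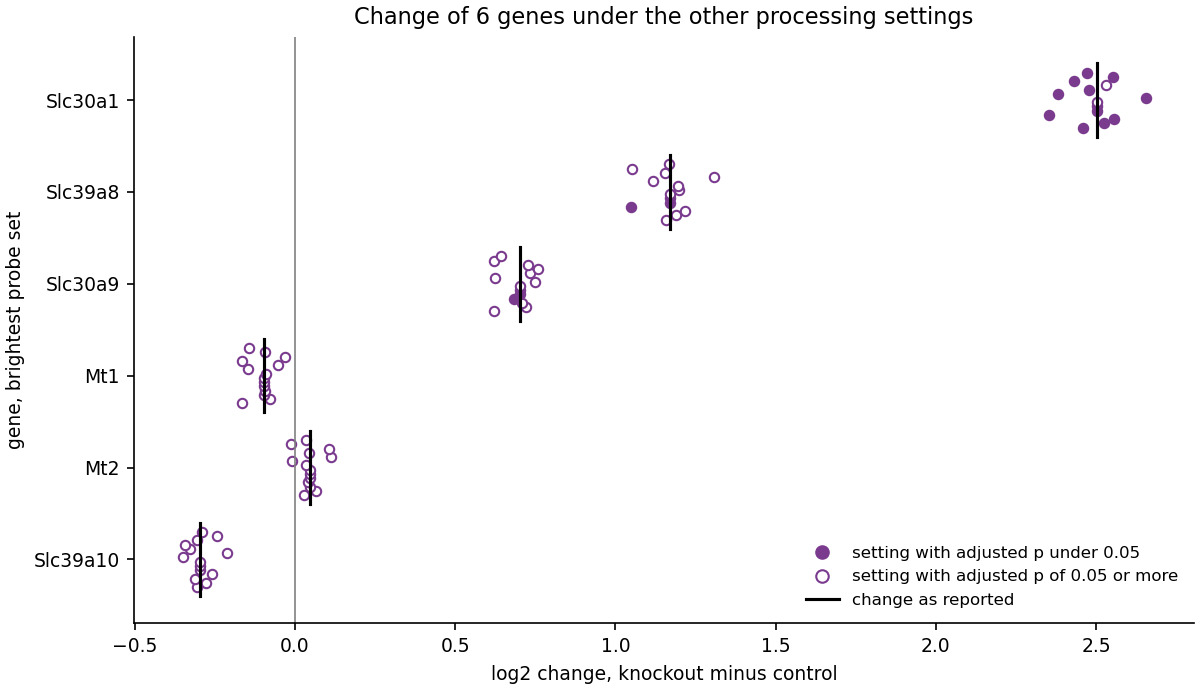
Log2 change (x axis, knockout minus control) of the brightest probe set of 6 genes (y axis) under 14 other processing settings, among them leaving out each mouse. Filled points had an adjusted p under 0.05 and open points did not, and the black line is the change as reported. Slc30a1 stayed between 2.35 and 2.65, Slc39a8 between 1.05 and 1.31 and Slc30a9 between 0.62 and 0.76, while Mt2 lay on both sides of 0.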

How the data were processed

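The authors deposited 1 table with a linear intensity for each of 45037 probe sets and 6 arrays, 1 per mouse. RNA was isolated with Trizol and labelled with biotin as cRNA for Affymetrix arrays, per the labels' protocols. The labels leave the summarisation of probes, the background correction and the scaling unstated. Symbols came from the platform annotation, updated by Entrez ID (34741 of 34945 single-symbol probe sets matched RefSeq). Log2 medians and interquartile ranges differed by at most 0.057 and 0.070 between arrays, under the limit of 0.1, so no further normalization was made.

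Knockout and control were compared on log2(intensity + 16) with limma 3.58.1 (R 4.3.3, lmFit, then eBayes, two-sided, Benjamini-Hochberg over all probe sets, threshold 0.05). The code was checked on data simulated from the fit's own variances, which cannot show how often real changes are missed here. The 3 mice per group limit the precision. Each p-value sets a difference against the variance between mice, which eBayes moderates over all probe sets. A gene was read by its brightest probe set. All members are named, as are listed genes past the threshold or up to 3 per list by p, the 5 genes most like Slc30a1 and 3 neighbours per side. Gata1, Klf1, Tfrc, Epor, Alas2, S100a8, Bcl11a, Slc30a2, Slc30a8, Car1, Car2, Car3, Car13, Ndrg1 and Vpreb1 were named outside that rule, after their values were seen. So were the dimmer probe sets of Mtf1, Alad, Sod1, Car3, Ndrg1, Nek2 and 1700034H15Rik. Members and lists were chosen with earlier results of these data known. Alternatives were median centring, quantile normalization, a pseudocount of 1 or 64, an intensity trend with robust moderation, the brightest 50% of probe sets, the replicate block and leaving out each mouse, and cyclic loess normalization was added after seeing the data.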

Additional observations from a re-analysis of the deposited data

How the results depend on the processing

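Since this contrast chose Slc30a1, its direction under other settings is a description and no support for the rise. Slc30a1 kept its direction under all 14 other settings. Its brighter probe set had log2 changes from 2.35 to 2.65 and limma adjusted p from 9.74e-08 to 0.121. Its call ended without knockout mouse 1 (adjusted p = 0.0555) and with the replicate block (change 2.50, adjusted p = 0.121), which also left 0 of the 15 zinc probe sets past the threshold, in place of 2. Without each mouse in turn its change was 2.38 to 2.65 and 1 to 2 of the 15 passed, and 4 passed with a pseudocount of 64, among the brightest 50% of probe sets and with an intensity trend and robust moderation. Those same 3 settings called 1, 1 and 4 of the 34 other zinc genes, against 0. Of all 45037 probe sets 66 passed, and 38 passed with a pseudocount of 1 and 558 with 64. With the trend 1445 passed, with the block 14 and without 1 mouse 27 to 41. Among the brightest 50% alone 839 passed. That setting dropped the dimmer probe sets, zinc ones included, before the fit, so its counts have a smaller base. The cause of these shifts was not tested. Changes near 0 crossed it without control mouse 2 or without knockout mouse 3: leaving out 1 mouse at a time gave -0.131 to 0.0301 for Slc30a5 and -0.0126 to 0.112 for Mt2. The labels number the mice and name no pairing. Deviations from the group means of same-numbered mice correlated at r = -0.03, -0.01 and -0.04 across probe sets, and no mouse correlated best with its own number. Correlations over all probe sets cannot exclude a batch shared by same-numbered mice that acts on some genes, so the block result stands as a limit. Signal over background could not be assessed, which limits the 2 member probe sets (the dimmer of Mt1 and of Slc39a8) and the 9 of 34 other zinc genes that lay under the lowest array median on every array, among them Slc30a2, Slc30a8, Slc39a5, Slc39a12, Mt3 and Mt4.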
